A study of Mus musculus with 48 samples.

Results

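The 5 genes described here encode repressors of the mammalian circadian clock: the cryptochromes Cry1 and Cry2, Ciart (also called CHRONO), Bhlhe40 (DEC1) and Bhlhe41 (DEC2). They were taken by symbol from both expression tables of the series, and each symbol gave 1 of the 49585 gene rows. The values come from whole kidney of wild-type mice given vehicle or D-alanine, the D-enantiomer of alanine, and collected at CT0, CT4, CT8, CT12, CT16 or CT20 (circadian time in hours). Each of the 12 groups holds 4 libraries, 48 in all, and no genotype or allele other than wild type is labelled. The labels used here name no strain, age, dose, route or length of treatment. The kidneys are described as coming from different mice in an experiment run 2 times. The libraries sit in 2 tables of 24, with 2 libraries of each group in each table, and whether a table is a run is not stated.

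The clock is a loop of transcription and repression. CLOCK, or its relative NPAS2, pairs with BMAL1 (gene Arntl) and activates genes through E-box sequences, and the products of some of those genes then shut the activator off. PER and CRY proteins form the repressor complex, and CRY1 is its most potent inhibitory component. CIART also binds the activator and represses it, while DEC1 and DEC2 are helix-loop-helix proteins that compete for E-boxes and recruit corepressors. The kidney has such a clock in its tubule cells, where it is known to time the handling of salt, water and metabolites.

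E-boxes are the sequences through which the activators work, and the stretches just upstream of the genes are shown to locate them. The RefSeq promoter table (GRCm38.p6), which gives 250 bases before to 50 bases after each gene's start, held 4 of the 5 members: Cry1, Cry2, Ciart and Bhlhe41. The bases printed are those upstream of both the RefSeq start and the start in the deposited tables, 5′ to 3′ on the strand of the gene, which is the minus strand for all 4. Capitals mark the E-box CACGTG and the related element CACGTT, which reads AACGTG on the other strand.
Cry1, chr10:85185065-85185304: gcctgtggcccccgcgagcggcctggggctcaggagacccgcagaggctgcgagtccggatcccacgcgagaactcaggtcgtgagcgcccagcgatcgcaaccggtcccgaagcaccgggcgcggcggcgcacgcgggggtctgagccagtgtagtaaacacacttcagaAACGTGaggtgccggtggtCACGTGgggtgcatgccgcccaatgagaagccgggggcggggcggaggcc
Cry2, chr2:92434070-92434319: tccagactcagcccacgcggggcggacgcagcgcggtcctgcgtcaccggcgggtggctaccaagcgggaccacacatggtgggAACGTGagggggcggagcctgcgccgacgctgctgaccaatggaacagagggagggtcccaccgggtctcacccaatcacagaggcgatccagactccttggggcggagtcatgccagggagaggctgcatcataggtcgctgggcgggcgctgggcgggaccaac
Ciart, chr3:95882252-95882478: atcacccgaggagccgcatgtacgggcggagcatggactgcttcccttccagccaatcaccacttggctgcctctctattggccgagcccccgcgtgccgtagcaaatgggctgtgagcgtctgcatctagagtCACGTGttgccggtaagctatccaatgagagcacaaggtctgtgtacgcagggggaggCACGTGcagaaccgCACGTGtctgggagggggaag
Bhlhe41, chr6:145865559-145865670: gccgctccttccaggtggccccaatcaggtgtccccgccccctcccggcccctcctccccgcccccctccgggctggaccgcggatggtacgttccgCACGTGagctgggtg
Ciart held 3 copies of CACGTG, whose first bases lie at -116, -58 and -44 from the RefSeq start. Cry1 held 1 copy at -60 and an AACGTG at -79. Bhlhe41 held 1 CACGTG at -153, and Cry2 held no CACGTG but an AACGTG at -166. Both strands were searched. Of 32851 promoter windows of the same 300 bases, 7.15% held at least 1 CACGTG, 0.594% at least 2 and 0.0883% at least 3, and 4.68% held the CACGTT element. The D-box TTATGNAA, found in 3.38% of windows, and the ROR element, found in 0.384%, had no match in the 4 windows. A match is a run of letters and not a measured binding site.

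In the deposited tables (GRCm38) the genes span chr10:85131700-85185064 for Cry1, chr2:92403646-92434043 for Cry2, chr3:95878503-95882251 for Ciart and chr6:145858243-145865558 for Bhlhe41, all on the minus strand, and chr6:108660629-108666925 on the plus strand for Bhlhe40. All 5 are protein coding, and each value sums over the exons of the gene. The unit is FPKM, fragments scaled to the length of the gene and to the library total, so levels may be compared between genes. Steps in the low values put the depth of the libraries between 7626093 and 14403231 fragments. In a single library Bhlhe40 rested on 351 to 1228 fragments (median 710), Cry2 on 87 to 483 (median 302) and Cry1 on 16 to 236 (median 89.5). Ciart rested on 8 to 679 (median 50.5) and Bhlhe41 on 10 to 122 (median 37), so Bhlhe41 carried the most counting error by its median, and Ciart at its low times. Transcripts on the other strand overlap 4 of the genes, and the labels do not say if strand was kept. The largest of these overlapping transcripts was 0610040F04Rik at Bhlhe40 (mean 5.60 FPKM), followed by C920021L13Rik at Ciart (mean 1.41 FPKM), so part of those fragments could be shared.

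The tissue label was checked on 45 markers in 14 cell type lists. The 4 proximal tubule markers summed to between 1644 and 3366 FPKM in vehicle and between 1402 and 3585 FPKM in D-alanine libraries, whereas the 5 adrenal cortex markers summed to at most 1.23 FPKM in any library. Medullary content varied: the 4 inner medulla markers summed to 45.3 to 278 FPKM in vehicle and 38.2 to 711 FPKM in D-alanine libraries. The 5 adipose markers varied as well, from 6.01 to 25.5 FPKM in vehicle and from 7.36 to 51.8 FPKM in D-alanine libraries. Of 36 markers tested, limma called 5 rhythmic with vehicle and 2 with D-alanine, where 9.77% and 8.3% of all tested genes were called. The part of these markers in the rhythms below was not tested. Transcripts of the mitochondrial genome took 28.9% to 47.0% of all FPKM in the first table and 14.9% to 23.4% in the second. The median share was lower with D-alanine in each table, 37.1% against 41.1% with vehicle in the first and 17.0% against 20.3% in the second. In bulk kidney, fewer cells of a type and less RNA per cell cannot be told apart.

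The 5 repressors differed widely in level. Over the 24 vehicle libraries the mean was 12.8 ± 3.72 FPKM for Bhlhe40, 4.78 ± 5.94 for Ciart, 3.76 ± 1.34 for Cry2, 2.37 ± 1.57 for Cry1 and 0.555 ± 0.333 for Bhlhe41 (SD, n = 24). The SD of Ciart was larger than its mean, and medians put Ciart lower, at 1.85 FPKM against 3.74 for Cry2 and 1.94 for Cry1. In the D-alanine libraries the order of the means was the same, from 14.2 ± 4.53 FPKM for Bhlhe40 to 0.603 ± 0.349 for Bhlhe41 (SD, n = 24).

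**Figure D1:**
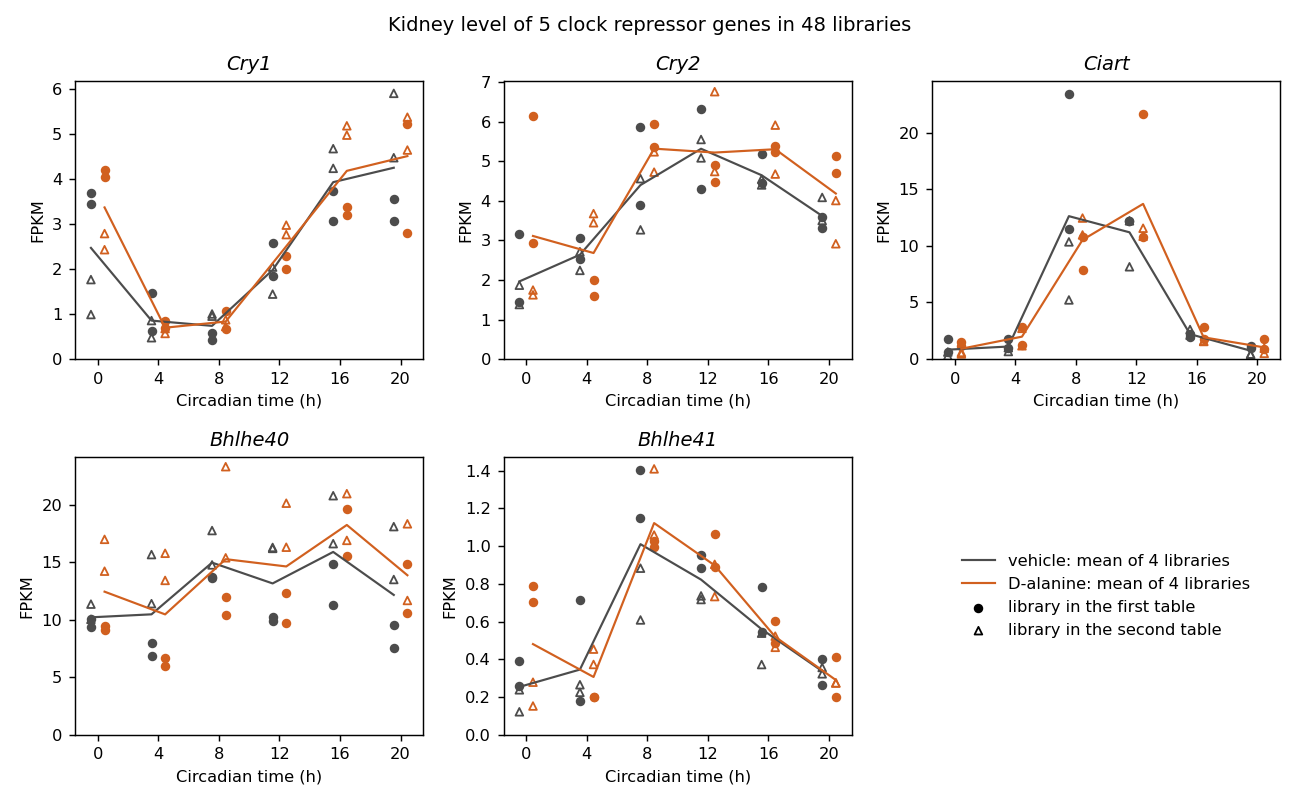
FPKM of each gene (y axis, from 0) against circadian time in hours (x axis) in every library, with lines through the means of 4 libraries for vehicle (grey) and D-alanine (orange), circles for the first table and open triangles for the second. Ciart is high at CT8 and CT12 only, and Cry1 is high at CT16 and CT20 and, in the first table, at CT0. With both tables pooled, the vehicle and D-alanine points overlap at every time.

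Cry1, the stronger repressor of the cryptochrome pair, was highest in the subjective night. In vehicle its 4 values at CT20 were 3.06, 3.56, 4.47 and 5.90 FPKM, and at CT8 they were 0.420, 0.578, 1.002 and 0.953 FPKM. The lowest library at CT20 was above the highest at CT8, and the means, 4.25 ± 1.25 and 0.738 ± 0.284 FPKM (SD, n = 4), differed 5.76-fold. Here and for the members below, the times compared are those with the highest and lowest mean in these same values. That choice favours a large fold and a lack of overlap. The share of all genes whose extreme times separate in this way is not given. In the D-alanine libraries CT20 gave 2.81, 5.21, 4.64 and 5.37 FPKM, and the lowest time was CT4, with 0.697, 0.845, 0.569 and 0.678 FPKM. Those groups did not overlap either, and their means differed 6.47-fold. The order of the times by mean was CT20, CT16, CT0, CT12 and then CT4 and CT8, which changed places between the treatments. With both tables pooled, neighbours in that order overlapped, except CT12 and CT8 in the D-alanine libraries. The level at CT0 split by table. In vehicle its mean was 3.56 FPKM in the first table and 1.38 FPKM in the second, where CT12 had 1.74 FPKM. In D-alanine libraries it was 4.13 FPKM in the first and 2.61 FPKM in the second, where CT12 had 2.87 FPKM.

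Cry2, the other cryptochrome, had a broad daytime to evening plateau and a shallower swing. Its vehicle values at CT12 were 6.33, 4.30, 5.08 and 5.55 FPKM, against 3.16, 1.45, 1.87 and 1.38 FPKM at CT0. These groups did not overlap, and the means of 5.31 ± 0.851 and 1.96 ± 0.825 FPKM (SD, n = 4) differed 2.71-fold. In the D-alanine libraries CT8, CT16 and CT12 had nearly equal means of 5.32, 5.30 and 5.22 FPKM, and CT4 had the lowest, 2.68 ± 1.03 FPKM (SD, n = 4). At CT0 the D-alanine libraries gave 2.94, 6.14, 1.74 and 1.62 FPKM, so 1 library stood at the level of the daily maximum and the others at 2.94 FPKM or below.

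Ciart, the gene with the E-box cluster shown above, behaved almost as an on and off signal. Its vehicle values were 23.4, 11.5, 5.22 and 10.3 FPKM at CT8 and 12.2, 12.2, 12.2 and 8.15 FPKM at CT12. At CT20 they were 1.16, 0.950, 0.408 and 0.443 FPKM, a 17.0-fold difference between the means of CT8 and CT20 (12.6 ± 7.69 and 0.740 ± 0.374 FPKM, SD, n = 4). Every vehicle library at CT8 and CT12 was above every library at the other 4 times, and the same held for D-alanine. There CT12 gave 21.6, 10.8, 11.6 and 10.8 FPKM and CT0 gave 1.12, 1.49, 0.453 and 0.592 FPKM, a 15-fold difference of means. The spread at the top was large, from 5.22 to 23.4 FPKM over the 8 libraries at CT8.

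Bhlhe40 (DEC1), the most abundant member, swung little. Vehicle values at CT16 were 11.3, 14.9, 20.8 and 16.6 FPKM, and at CT0 they were 9.36, 10.1, 11.4 and 10.04 FPKM. With both tables pooled, these highest and lowest times overlapped by a narrow margin (lowest at CT16 11.31 FPKM, highest at CT0 11.37 FPKM). Within each table both CT16 libraries were above both CT0 libraries. The means differed 1.56-fold. In the D-alanine libraries CT16 gave 15.5, 19.6, 20.98 and 16.9 FPKM and CT4 gave 6.68, 6.00, 15.8 and 13.4 FPKM, with a 1.74-fold difference of means. These again overlapped when pooled, but within each table both CT16 libraries were above both CT4 libraries. At CT4 both libraries of the first table were below both of the second in each treatment.

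Bhlhe41 (DEC2), the close relative of Bhlhe40, was near the limit of measurement and had its highest means at CT8 and CT12, as Ciart did. Vehicle values at CT8 were 1.15, 1.40, 0.609 and 0.883 FPKM, and at CT0 they were 0.394, 0.261, 0.122 and 0.238 FPKM. These groups did not overlap, and the means, 1.01 ± 0.342 and 0.254 ± 0.111 FPKM (SD, n = 4), differed 3.98-fold. In the D-alanine libraries CT8 gave 1.03, 0.995, 1.41 and 1.06 FPKM and CT20 gave 0.201, 0.411, 0.275 and 0.274 FPKM, without overlap and with a 3.87-fold difference of means. Genes entered the tests with at least 1 FPKM in at least 4 libraries. Bhlhe41 reached 1 FPKM in 6 libraries, all at CT8 or CT12, so it passed only through its high times. Without that filter its rhythm had an adjusted p of 0.000454 in vehicle and 0.000840 in D-alanine libraries in limma.

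A cosine with a 24 h period was fitted to log2(FPKM + 1) of each treatment, with a term for the table, across the 14922 genes tested. The amplitude is the distance from the mean to the peak on that scale, which understates the swing of low genes. In limma with Benjamini-Hochberg adjustment over all genes, all 5 members were called rhythmic in vehicle and in D-alanine libraries, where 9.77% and 8.3% of all tested genes were called. Bhlhe41 had to differ between times to be tested at all, so the 5 are not a count of independent outcomes.

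Ciart had the largest vehicle amplitude of the 5, 1.63 ± 0.15 (SE; adjusted p = 2.92e-10, limma), which ranked 2 among all tested genes in both treatments. Cry1 followed with 0.87 ± 0.09 (adjusted p = 4.69e-09, limma), ranking 23 in vehicle and 16 in D-alanine libraries. The other amplitudes in vehicle were 0.53 ± 0.09 for Cry2 (adjusted p = 0.000122), 0.33 ± 0.06 for Bhlhe41 (adjusted p = 0.000400) and 0.27 ± 0.08 for Bhlhe40 (adjusted p = 0.0469), by limma. The median over all tested genes was 0.11. The order depends on the scale: with a pseudocount of 0.1 the vehicle amplitude of Bhlhe41 was 0.83 and in limma voom 1.03, both above Cry2 at 0.68. Ciart (2.24 and 2.66) and Cry1 (1.32 and 1.34) remained above both, and Bhlhe40 was lowest at 0.29 in each. In the D-alanine libraries they were 1.57 ± 0.15 for Ciart, 0.92 ± 0.09 for Cry1, 0.45 ± 0.09 for Cry2, 0.32 ± 0.06 for Bhlhe41 and 0.31 ± 0.08 for Bhlhe40, with limma adjusted p from 1.03e-09 for Ciart to 0.0164 for Bhlhe40.

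The call for Bhlhe40 was marginal. In vehicle it was lost when any of 25 of the 48 libraries was left out, with adjusted p between 0.0335 and 0.104 in limma, the highest without vehicle CT0 replicate 4, and under 7 of 14 other settings. With the 6 times as free levels in place of the cosine its adjusted p in vehicle was 0.0634 in limma, a test that called 5.17% of all genes. In D-alanine libraries the call was lost without D-alanine CT16 replicate 2 (adjusted p = 0.0579, limma) and under 4 of 14 other settings, with adjusted p up to 0.381. Within the first table alone, limma lost the calls of Cry2 (adjusted p = 0.126 in vehicle and 0.241 in D-alanine), Bhlhe41 (0.104 and 0.349) and Bhlhe40 in vehicle (0.424). Within the second table alone it lost those of Bhlhe40 in vehicle (0.127) and D-alanine (0.381).

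The fitted peaks ran from Ciart to Cry1 in both treatments. In vehicle Ciart peaked at CT10.5 ± 0.35, Bhlhe41 at CT10.8 ± 0.67, Cry2 at CT12.9 ± 0.62, Bhlhe40 at CT13.1 ± 1.09 and Cry1 at CT18.3 ± 0.39 (SE in hours). In D-alanine libraries the peaks were at CT10.2 for Ciart and Bhlhe41, CT13.3 for Cry2, CT14.9 for Bhlhe40 and CT18.4 for Cry1. Cry1 trailed Cry2, its paralog, by 5.42 h in vehicle (95% interval 3.99 to 6.85) and by 5.11 h in D-alanine libraries (3.51 to 6.71). Bhlhe41 preceded its own paralog Bhlhe40 by 2.24 h in vehicle (-0.27 to 4.75), an interval that includes 0, and by 4.67 h in D-alanine libraries (2.40 to 6.95). Ciart and Bhlhe41 were 0.34 h apart in vehicle (-1.14 to 1.82), and Cry2 and Bhlhe40 0.14 h apart (-2.31 to 2.60), so neither pair could be ordered. All these intervals treat the 2 genes of a pair as independent, although they were measured in the same libraries.

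**Figure D2:**
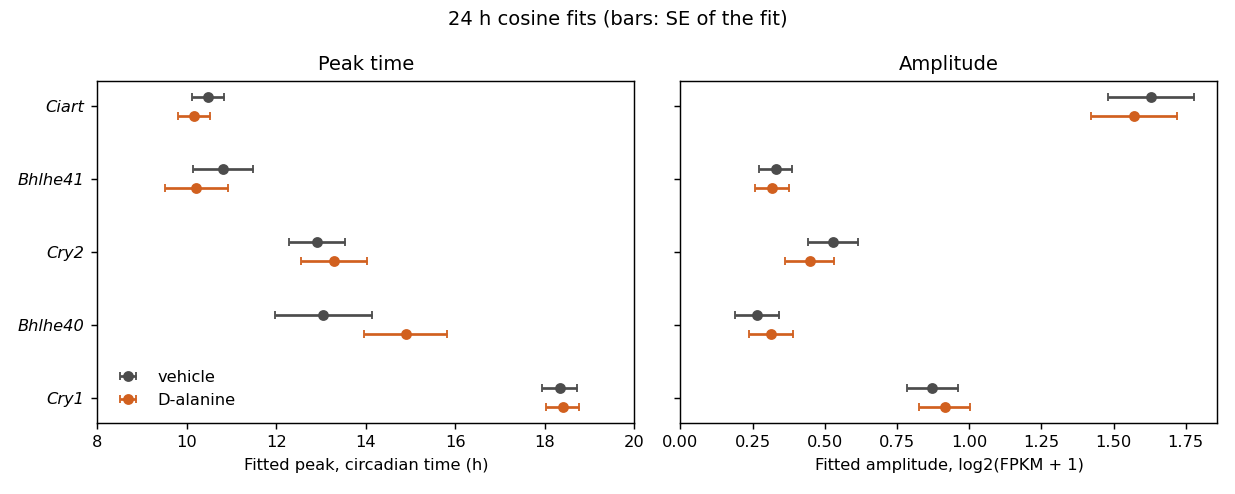
Fitted peak in circadian hours (left x axis) and fitted amplitude on the log2(FPKM + 1) scale (right x axis) of each gene in vehicle (grey) and D-alanine (orange), with bars for the SE. Peaks run from Ciart near CT10 to Cry1 near CT18, and the amplitude of Ciart, 1.63 in vehicle, stands apart from the rest.

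The phases of the activators and period genes place these peaks in the loop. Arntl, which encodes BMAL1, peaked at CT22.2 in vehicle, Npas2 at CT23.4 and Clock at CT21.8. The period genes, partners of the cryptochromes, peaked at CT11.7 for Per3, CT13.0 for Per1 and CT14.9 for Per2. By these fitted values Cry2 and Bhlhe40 peaked in vehicle within the span of the period genes, Ciart and Bhlhe41 before it, and Cry1 after it and before the activators. These gaps to other genes were not tested.

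Changes between adjacent times, averaged over both treatments, showed when each gene turned on. Between CT4 and CT8, Ciart rose by 2.27 ± 0.17 on the log2(FPKM + 1) scale (SE; adjusted p = 1.31e-11, limma), Cry2 by 0.69 ± 0.15 (0.00863), Bhlhe41 by 0.64 ± 0.08 (5.56e-06) and Bhlhe40 by 0.54 ± 0.12 (0.0170). Bhlhe41 passed the filter only through CT8 and CT12, so its rise was favoured in advance. It was called under all 12 other settings, the one without that filter included, with adjusted p up to 0.0231 in limma. Only 0.797% of tested genes were called between CT4 and CT8, 0.496% upward. Cry1 did not pass the test there, with a change of 0.01 ± 0.15 (adjusted p = 0.983, limma). It rose by 0.85 ± 0.15 between CT8 and CT12 (adjusted p = 0.00270, limma), a step in which 0.228% of genes were called and 0.134% upward, and by 0.64 ± 0.15 between CT12 and CT16 (adjusted p = 0.0111, limma), where 2.46% were, 1.5% upward.

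The falls were staggered as well. Ciart fell by 2.10 ± 0.17 between CT12 and CT16 (SE; adjusted p = 1.31e-10, limma), where 0.958% of genes were called downward, and by 0.72 ± 0.17 between CT16 and CT20 (adjusted p = 0.0376), a step with 0.503% of genes called, 0.255% downward. Cry1 fell by 1.09 ± 0.15 between CT0 and CT4 (adjusted p = 5.70e-06, limma), where 7.88% of genes were called, 4.05% downward. Cry2, Bhlhe40 and Bhlhe41 had no downward step past the threshold as fitted, but for Cry2 and Bhlhe41 this depended on the setting. The steepest was the change of Cry2 from CT20 to CT0, -0.56 ± 0.15 (adjusted p = 0.0765, limma), in a step with 0.429% of genes called. It was called without D-alanine CT0 replicate 2, the high library above (adjusted p = 0.00298), and without D-alanine CT20 replicate 3 (0.0437), and under 6 of 12 other settings, with adjusted p from 0.0220 to 0.357 over the 12. The change of Bhlhe41 from CT12 to CT16, -0.27 ± 0.08 (adjusted p = 0.0725, limma), was called under 2 of 12, quantile normalization (0.0148) and median centring (0.0161). The change of Cry1 from CT20 to CT0, -0.49 ± 0.15 (adjusted p = 0.146, limma), was called with a table by time term (0.0138) and in the second table alone (0.000840) and had the opposite sign in the first. In all, 9 of 30 steps passed, the rise of Bhlhe41 that its filter favoured included. Over the 14922 tested genes the 6 steps gave 1835 calls, with 0.228% to 7.88% of genes called in a single step. The second fall of Ciart lost its call without any of 13 libraries, with adjusted p up to 0.125 in limma (without vehicle CT16 replicate 3), and under 6 of 12 other settings, with adjusted p up to 0.999985 in the first table alone. The rise of Bhlhe40 lost its call without vehicle CT4 replicate 1, vehicle CT8 replicate 2, D-alanine CT4 replicate 1 or 2, or D-alanine CT8 replicate 3, with adjusted p up to 0.0725 in limma, and under 3 of 12 other settings. The rise of Cry2 lost its call in the second table alone (adjusted p = 0.380, limma), and both rises of Cry1 lost theirs in the first (0.0904 and 0.442).

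**Figure D3:**
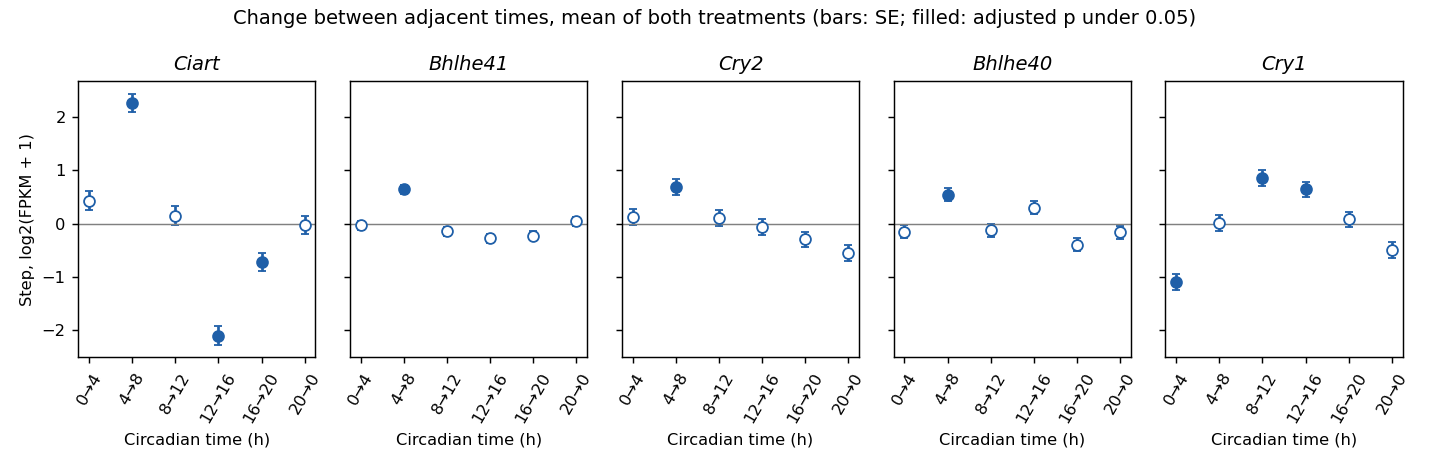
Change of log2(FPKM + 1) between adjacent times (y axis), averaged over vehicle and D-alanine, for the 6 steps of the day (x axis), with bars for the SE and filled points where the adjusted p is under 0.05. Ciart rises by 2.27 between CT4 and CT8 and falls by 2.10 between CT12 and CT16, while Cry1 moves upward only after CT8.

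The shape of the Ciart profile was not a simple cosine. A test of the departure from the 24 h cosine, over both treatments, called Ciart (adjusted p = 0.000279, limma) and no other member, where 0.355% of all genes were called. The fitted 12 h component of Ciart was 0.34 of its 24 h amplitude and peaked at CT10.1, close to the 24 h peak, so the fitted profile was a narrower pulse than a cosine. On the log2(FPKM + 1) scale the low end of the profile is compressed, and in limma voom on recovered fragments, an alternative chosen after seeing the data, the adjusted p was 0.151. Within the first table alone it was 0.122 and within the second 0.344. The next member was Bhlhe41 with an adjusted p of 0.0957 in limma, which became 0.0451 without vehicle CT4 replicate 2.

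The 2 pairs of paralogs changed their balance over the day. The log2 ratio of Cry1 to Cry2, each as FPKM + 1, had a 24 h amplitude of 0.93 with its peak at CT20.4 (permutation test with 100000 resamples, 48 libraries, p = 1e-05, the smallest it can give; 2e-05 adjusted over 2 pairs). Cry1 was above Cry2 in FPKM in 0 of 8 libraries at CT4, CT8 and CT12, in 2 of 8 at CT16, 6 of 8 at CT20 and 5 of 8 at CT0. At CT8 the vehicle ratio of Cry1 to Cry2 was 0.180 ± 0.098 and at CT20 it was 1.16 ± 0.254 (SD, n = 4). Over all 48 libraries Cry1 was the higher one in 13. The genes of both pairs had been called rhythmic on these same values, so neither ratio test is independent of those calls.

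Bhlhe40 exceeded Bhlhe41 in all 48 libraries, by 9.14-fold to 93.3-fold in FPKM. The log2 ratio of this pair also varied over the day, with an amplitude of 0.27 and a peak at CT18.8 (permutation p = 0.00012, adjusted 0.00012). In vehicle libraries alone the amplitude was 0.18 and the adjusted permutation p was 0.0588. Over the 5 other settings the amplitude ran from 0.18 to 0.63. Most Bhlhe41 values were under 1 FPKM, so the added 1 weighs on the size of this ratio. The FPKM ratio in vehicle was lowest at CT8, 16.5 ± 6.83, and highest at CT0, 49.5 ± 30.3 (SD, n = 4), so its spread at CT0 was wide.

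**Figure D4:**
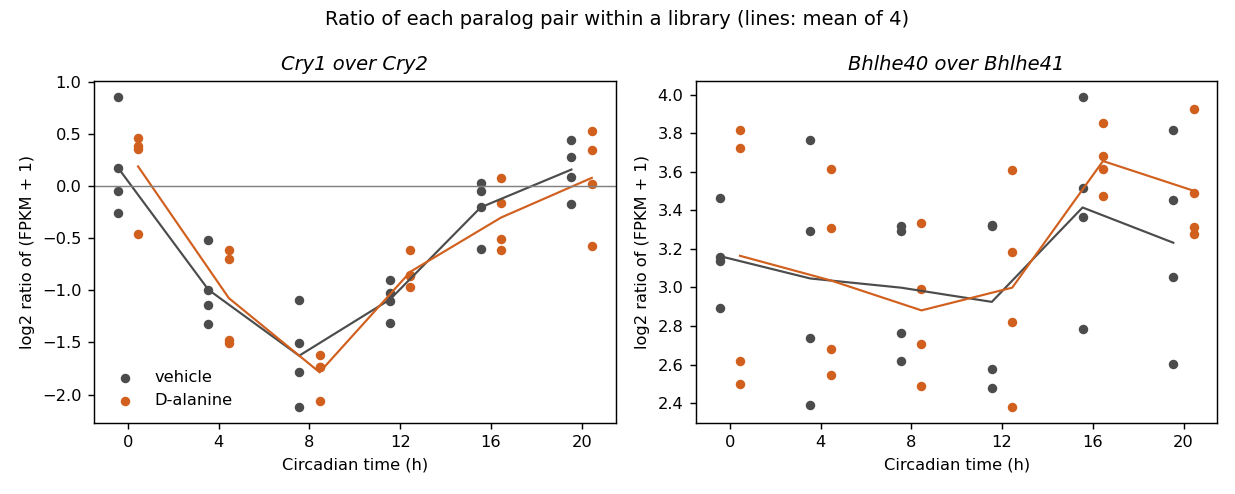
Log2 ratio of (FPKM + 1) within each library (y axis) of Cry1 over Cry2 (left) and Bhlhe40 over Bhlhe41 (right) against circadian time (x axis), in vehicle (grey) and D-alanine (orange), with lines through the means of 4 libraries. The Cry1 to Cry2 ratio lies below 0 in every library at CT4, CT8 and CT12, and the Bhlhe40 to Bhlhe41 ratio is above 2 throughout.

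The comparison of treatments is what the series was designed for, and none of the 5 repressors passed it. The test of a difference in rhythm called 0 of 5 members and 0 of all genes in limma (0% of the 14922 tested), with an adjusted p of 0.999979 for each member and 353 genes at an unadjusted p under 0.05. In the unadjusted tests the members lay between 0.409 for Bhlhe40 and 0.931 for Cry1. The peak with D-alanine minus that with vehicle was 0.07 h for Cry1 (95% interval -0.97 to 1.12), 0.38 h for Cry2 (-1.49 to 2.26) and -0.31 h for Ciart (-1.30 to 0.68). It was 1.84 h for Bhlhe40 (-0.97 to 4.64) and -0.59 h for Bhlhe41 (-2.49 to 1.30). Shifts of about an hour in Cry1 and Ciart, or of more in the others, thus lie within the intervals. Amplitude differences, D-alanine minus vehicle, ranged from -0.08 for Cry2 (-0.32 to 0.16) to 0.05 for Bhlhe40 (-0.16 to 0.26).

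Mean levels over the 6 times were not separated either. The log2 change with D-alanine was 0.12 ± 0.09 for Cry1, 0.15 ± 0.08 for Cry2, 0.13 ± 0.10 for Ciart, 0.12 ± 0.07 for Bhlhe40 and 0.04 ± 0.05 for Bhlhe41 (SE), with limma adjusted p between 0.306 and 0.643. In this contrast 1.74% of all genes were called and the median change over all genes was 0.06. The mitochondrial share, as given above, was lower with D-alanine. Scaled without mitochondrial genes, the changes were 0.11, 0.13, 0.12, 0.10 and 0.03 in the same order, with limma adjusted p between 0.449 and 0.770. At single times, 0 of 30 comparisons passed limma and none had an unadjusted p under 0.05. With both tables pooled, the ranges of vehicle and D-alanine libraries overlapped for every member at every time. Within each table, with 2 libraries per group, Cry1 at CT0 and Cry2 at CT16 were higher with D-alanine without overlap (unadjusted p = 0.0665 and 0.446, limma). Cry1, Ciart and Bhlhe41 at CT8 and Cry2 at CT4 also separated in each table, but in opposite directions. With 2 libraries against 2, such separation can easily arise by chance. Its share over all genes is not given, so it is not read as an effect of the treatment. The smallest unadjusted p was 0.0599, for Ciart at CT4, where vehicle libraries read 1.01, 1.75, 1.01 and 0.669 FPKM and D-alanine libraries 1.23, 2.81, 2.71 and 1.18 FPKM. Genes were called at CT0 alone, 1.14% of those tested, against 0% at each of the other times, which had 338 to 2215 genes at an unadjusted p under 0.05. The treatment by time interaction in limma called 0 members and 0 genes, with 527 genes at an unadjusted p under 0.05. Limma voom on recovered fragments also called 0 members in each of these comparisons of treatments.

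The peak shift was also read within each table. For Cry1 it was 0.08 ± 0.77 h in the first table and 0.12 ± 0.61 h in the second (SE). For Cry2 it was 2.71 ± 1.48 h and -1.20 ± 1.10 h, and for Bhlhe40 3.40 ± 1.77 h and -1.54 ± 2.48 h, so these 2 had opposite signs in the 2 tables. Ciart (0.32 and -0.90 h) and Bhlhe41 (0.40 and -1.51 h) also changed sign. A test of whether the treatment difference in rhythm itself differed between tables called 0 members and 0 genes in limma, with 429 genes at an unadjusted p under 0.05, Bhlhe40 among them at 0.0466.

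**Figure D5:**
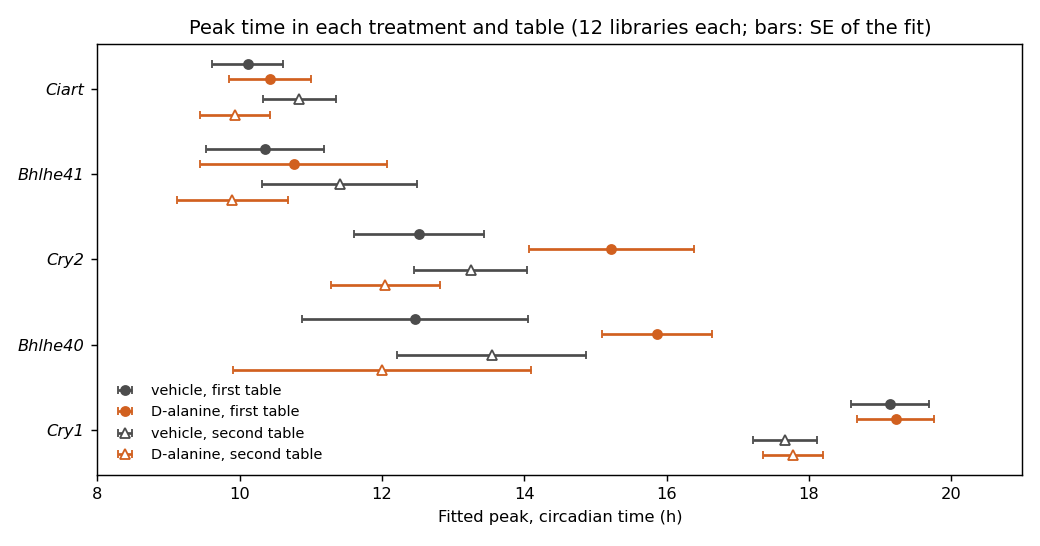
Fitted peak in circadian hours (x axis) of each gene in the 4 combinations of treatment (grey vehicle, orange D-alanine) and table (filled circles first, open triangles second), each from 12 libraries, with bars for the SE. The order from Ciart to Cry1 holds in each combination for those 2 genes, while the peaks of Cry2 and Bhlhe40 move by several hours.

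The tables themselves differed. Bhlhe40 was higher in the second table by 0.55 ± 0.07 on the log2(FPKM + 1) scale (SE; adjusted p = 1.45e-08, limma), with means of 10.9 ± 3.22 and 16.1 ± 3.29 FPKM (SD, n = 24). Ciart was lower there by 0.34 ± 0.10 (adjusted p = 0.00287, limma) and Bhlhe41 by 0.12 ± 0.05 (adjusted p = 0.0323, limma). The cryptochromes did not pass, with changes of 0.02 ± 0.09 for Cry1 and -0.10 ± 0.08 for Cry2. Since 64% of all genes were called between tables, this is not particular to the repressors, and the table stood in every model as a term. The peak of Cry1 was at CT19.1 and CT19.2 in vehicle and D-alanine libraries of the first table and at CT17.7 and CT17.8 in those of the second, a difference between tables that was not tested.

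Among themselves, the members' profiles over the 48 libraries, centred on each table, were most alike for Ciart and Bhlhe41 (Pearson r = 0.85) and least alike for Ciart and Cry1 (r = -0.40). These and the following correlations describe libraries that share collection times and depth, and carry no test. Cry2 was alike both to Bhlhe41 (r = 0.68) and to Bhlhe40 (r = 0.65). Cry1 and Cry2, though paralogs, had r = 0.20.

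Across 9680 genes with a mean of at least 2 FPKM, the profile most like Cry1 was that of Srebf1 (r = 0.78), a regulator of lipid synthesis, and Tubb2a, Aebp1 and Micall1 were also among the most alike (r = 0.75 to 0.74). The most opposed were Nr1d1 (r = -0.82), which encodes the repressor REV-ERB alpha, and Gjb2 (r = -0.81). Cry2 was most like Tspan4 (r = 0.80), Wee1 (r = 0.79), a kinase that restrains entry into mitosis, and Per3 (r = 0.76). Next came Tmem57 (r = 0.76) and Coq10b (r = 0.74), and the most opposed were Eif4g3 (r = -0.76) and Itgb6 (r = -0.74). Ciart was most like Upp2 (r = 0.90), a uridine phosphorylase, and Dbp (r = 0.89) and Tef (r = 0.87), both D-box factors, then Per3 (r = 0.85) and Cpeb3 (r = 0.82). Opposed to it were Dtx4 (r = -0.91) and Palm3 (r = -0.89).

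Bhlhe41 was most like Fam76a (r = 0.82), Per3 (r = 0.80), Tspan4 (r = 0.77), Dbp (r = 0.76) and Upp2 (r = 0.74), so 3 of its 5 were shared with Ciart. It was opposed by Palm3 (r = -0.80) and Ndrg1 (r = -0.80). Bhlhe40 had weaker likenesses, led by the prion protein gene Prnp (r = 0.75) and Afmid (r = 0.73), then Cys1, Hlf and Ak4 (each r = 0.69). Mmp14 (r = -0.70) and Mndal (r = -0.64) were the most opposed.

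Of the other genes of the pathway, all 3 tested activators (Arntl, Npas2 and Clock) and all 3 period genes passed the rhythm test of limma in both treatments. So did all 4 D-box factors (Dbp, Tef, Nfil3 and Hlf) and the nuclear receptor genes Nr1d1 and Nr1d2, while Rora did not pass. Of all tested genes, 9.77% passed in vehicle and 8.3% in D-alanine libraries. Median vehicle amplitudes of the activator, period and D-box lists were 1.06, 1.06 and 0.99, against 0.11 over all tested genes. These lists were chosen with results of these data known and their counts support nothing beyond the genes named.

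Among 18 tested genes whose products modify or degrade CRY and PER proteins, limma called 2 in vehicle, Usp2 and Btrc, and 3 in D-alanine libraries, with Csnk1d added. The shares over all tested genes were 9.77% and 8.3%, so these counts set the list apart in neither treatment. Usp2, a deubiquitinase, had an amplitude of 0.62 and a peak at CT12.7 in vehicle (adjusted p = 2.64e-07), whereas Btrc, a ubiquitin ligase subunit, had 0.13 (adjusted p = 0.0450).

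Other helix-loop-helix factors and E-box competitors gave 1 called gene of 13 in vehicle and 3 in D-alanine libraries, beside the same 9.77% and 8.3% of all genes. Hes6 was called in both, with a vehicle amplitude of 0.32 and a peak at CT9.02 (adjusted p = 0.000159, limma), and the inhibitors Id1 and Id3 in D-alanine libraries alone (adjusted p = 0.0178 and 0.0471, limma). Among the corepressors and chromatin partners, Hdac3, a histone deacetylase, was called in both treatments with a vehicle amplitude of 0.11 (adjusted p = 0.0284, limma), and the corepressor gene Ncor1 (0.19, adjusted p = 0.00877) in vehicle alone. None of the 63 genes tested in the pathway lists differed in rhythm or in mean level between treatments in limma, so a call in only 1 treatment is not a difference between them.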

How the data were processed

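Per the labels' protocols, RNA from kidney was purified with an RNeasy kit and SMARTER mRNA libraries were prepared. The authors deposited FPKM values in 2 tables. The submitters' processing notes name GRCm38 (mm10), and no source used here gives the aligner, counter or filters. FPKM divides each library by its own total, so abundant transcripts move all others. Groups come from the labels, and replicates 1 to 4 were numbered in sample order and pair nothing. In R 4.3.3, limma 3.58.1 was fitted to log2(FPKM + 1) of the 14922 of 49585 genes with at least 1 FPKM in at least 4 libraries, with a table term and Benjamini-Hochberg adjustment at 0.05. Rhythm is an F test of a 24 h cosine and sine; steps and treatment contrasts come from a model of the 12 groups. Ratios of paralogs were tested by permuting times within treatment and table. With exon lengths from GENCODE M21, 96.7% to 97.4% of low values came out as whole fragments within 0.05. On simulated data for rhythm in vehicle over 14922 genes, 60% of genes with an amplitude of 0.25 and 90% of those with 0.5 were recovered. These rhythms were set in vehicle alone, and the test of a difference in rhythm between treatments recovered 28% and 82%.

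The members, gene lists and tests were chosen with earlier results of these data known. Named are all members, up to 4 genes per pathway list by rhythm p over both treatments, the 5 most alike and 2 most opposed profiles, and nearest tested neighbours. Some items that this rule selects are not reported here. Alternatives changed the pseudocount, filter, scaling, table term, moderation or libraries used, and added limma voom on recovered fragments.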

Additional observations from a re-analysis of the deposited data

Results flagged for a closer look

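Each group of 4 libraries was checked for a member value that stands far from the other 3. Of 60 groups checked, 5 had one, where chance alone gives about 1 in 20. Ciart in vehicle at CT12 had 3 values of 12.2 FPKM and replicate 4 at 8.15 FPKM. In D-alanine libraries Ciart replicate 1 stood high at CT12, at 21.6 FPKM against 10.8 to 11.6 FPKM in the others, and replicate 2 stood high at CT16, at 2.81 FPKM. Bhlhe41 stood high in vehicle CT4 replicate 2, at 0.713 FPKM, and in D-alanine CT8 replicate 3, at 1.41 FPKM. No difference between treatments in rhythm or by time passed its test for any member.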

How the results depend on the processing

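The calls for Ciart and Cry1 rhythm held in both treatments under every alternative run, and the fitted peaks of all 5 members moved by at most 0.61 h across settings other than a single table, leaving out each library included. In the first table alone, with 24 libraries, the rhythm count fell to 2 of 5 in vehicle and 3 of 5 in D-alanine libraries. The departure from a cosine was called for 0 members in the first table, 0 in the second table and 0 with limma voom. In vehicle libraries alone 1 of 2 paralog ratios was called. Leaving out 1 library at a time gave 1 to 2 departures, 4 to 5 rhythmic members in each treatment and 8 to 10 steps. The mean change of Bhlhe41 with D-alanine reversed to -0.0279 with median centring and -0.0200 in the first table alone, and the Cry1 change from CT20 to CT0 reversed to 0.0797 in the first table alone. The cause of these changes was not tested. All-gene counts moved more: over the alternatives other than leaving out a library, rhythm in vehicle called 266 to 1746 genes (1458 as reported), rhythm in D-alanine 233 to 1448 (1238), steps 463 to 2331 (1835), departure 0 to 112 (53), the mean treatment difference 0 to 2668 (259), the difference at single times 0 to 2612 (170) and the interaction 0 to 2 (0). Leaving out 1 library gave 93 to 631 genes for the mean treatment difference, 0 to 1247 at single times and 24 to 89 for the departure. No paired analysis was possible because the replicate numbers follow sample order and come from no label. Depth limits Bhlhe41 most by its median of 37 fragments in a library, although the lowest single value was that of Ciart, 8 fragments.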

Other observations

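The nearest tested genes on each side of the members were read as a check on whether whole regions cycled. Mterf2, a mitochondrial transcription factor gene 3673 bases from Cry1, was rhythmic in limma with a vehicle amplitude of 0.32 and a peak at CT5.93 (adjusted p = 0.000718), and in D-alanine libraries with 0.29 (adjusted p = 0.00306). That peak is far from the CT18.3 of Cry1. The other 9 nearest tested genes were called in neither treatment: Gm8394 beside Cry1, Mapk8ip1 and Slc35c1 beside Cry2, Mrps21 and BC028528 beside Ciart, Gm16433 and Arl8b beside Bhlhe40, and Rassf8 and Sspn beside Bhlhe41. Their vehicle amplitudes ran from 0.02 for Gm8394 to 0.16 for Sspn. Over all tested genes 9.77% were called in vehicle and 8.3% in D-alanine libraries. The count of called neighbours is near those shares and does not decide whether regions cycled. BC028528, 1703 bases from Ciart, had a mean of 1.50 FPKM and a vehicle amplitude of 0.13 (adjusted p = 0.364, limma). The transcripts on the other strand that overlap Ciart and Bhlhe40, C920021L13Rik and 0610040F04Rik, had vehicle amplitudes of 0.18 and 0.16 and did not pass (adjusted p = 0.103 and 0.331, limma). Over the 8 libraries at each time, C920021L13Rik ranged from 1.17 ± 0.371 FPKM at CT20 to 1.75 ± 0.459 FPKM at CT8 (SD, n = 8), while Ciart ranged from 0.872 ± 0.538 FPKM at CT0 to 12.4 ± 3.95 FPKM at CT12.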
